A study of Homo sapiens with 18 samples.

Results

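Genes with opposed responses to an activating and a repressive chromatin modifier were sought in RWPE1, an established line of benign human prostate epithelial cells. A gene was placed among them when the tamoxifen effects of the 2 lines differed (the interaction) and when each line changed on its own, in opposite directions. Of 5816 genes tested, 247 (4.25%) were called in the interaction, and 18 of the 247 were opposed. Of those 18, 13 fell in the activating line and rose in the repressive line, and 5 rose in the activating line and fell in the repressive line. With counts scaled by library total, 9 of 18 opposed genes (13 of them shared) had the latter direction. A further 182 were called in the repressive line only and 19 in the activating line only. Another 8 moved in the same direction in both lines but to a different extent, and 20 passed in neither line alone. A gene was called when its Benjamini-Hochberg adjusted p in DESeq2 was under 0.05, and genes for which DESeq2 gave no adjusted p in a line, mostly low ones, counted as not called there. The classes are counts and carry no test of their own, because the interaction and the effects of the lines come from the same libraries.

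Each line stably carried 1 tamoxifen-inducible construct, a MACC, and was kept under blasticidin. All constructs joined the DNA-binding domain of a steroid hormone receptor to the ERT2 hormone-binding domain, which holds the protein inactive until tamoxifen is added, and to a FLAG tag. The activating construct added VP64, the repressive one KRAB, and the neutral one (3X) only the tag. Cells received ethanol vehicle or tamoxifen for 48 hours, with 3 biological replicates per group. The activating and repressive lines with vehicle and tamoxifen make up 12 of the 18 libraries, and the neutral line the other 6. Tamoxifen was used at 1.5 uM or 1.25 uM, since 2 fields of the labels disagree. Each construct was represented by 1 line, so that the effector and the line cannot be told apart, and all constructs lack the other domains of the receptor. Library totals were low, from 675609 to 792282 counts (median 756205 over the 12 activating and repressive libraries). A row with 0 counts could thus still hold up to 3.79 to 4.44 CPM (floor of 3 counts, counting error only). Reads assigned to a row on the other strand are not covered by this floor. Of 7 epithelial markers, 6 were present in every library and EPCAM held at most 8 counts, with 0 in 4 of the 12. Together they stood at a summed 2880 to 3651 CPM, whereas KLK3 had 0 counts in every library and 26 markers of other cell types together held 136.99 to 244 CPM.

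As background, steroid receptors of this kind bind DNA as dimers at response elements, inverted repeats of a short arm separated by a spacer. VP64 is a repeated viral activation domain that recruits coactivators. KRAB recruits corepressors that place the repressive histone mark H3K9me3. In the prostate, luminal cells are secretory and lie on a layer of basal cells. The RWPE1 libraries held counts of basal keratins (KRT5 and KRT14) and of luminal ones (KRT8 and KRT18).

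The element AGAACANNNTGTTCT (its own reverse complement, so that both strands were read) was searched in the GRCh37 genome within 50 kb of the annotated start of each gene, allowing 1 mismatch over its 12 fixed positions. A match was found near 5 of the 16 opposed genes with an annotated position (31.25%), against 1798 of 5635 tested genes (31.9%). Matches were present for 60 of 174 genes called in the repressive line only and 7 of 19 in the activating line only. The 4 matches below are shown because they lie nearest to opposed genes, with the 15 bases of the element in capitals, the plus strand 5′ to 3′, and the substitution counted from 1 at the first base of the element.
LTBR, A3G: gggccctAGGACATTCTGTTCTtttttac
NUDT6, A3G: gtatcagAGGACAACTTGTTCTgtcctga
RP11-66B24.4, T10A: ctatgtaAGAACAAGGAGTTCTcaaccag
IL17D, A4C: attttaaAGACCATCTTGTTCTgatttat
The LTBR match (chr12:6485484-6485498) lies 1273 bases downstream of the gene start, in an intron of LTBR and of the opposite gene SCNN1A. That near NUDT6 (chr4:123845302-123845316) lies 1179 bases upstream in an intron of SPATA5, that near RP11-66B24.4 (chr15:101465011-101465025) 5415 bases upstream in an intron of LRRK1, and that near IL17D (chr13:21264204-21264218) 12062 bases upstream in an intron of IFT88. The fifth, 40584 bases downstream of the start of RP11-706C16.8, is not printed. Matches lay near 0 of 8 genes called alike in both lines and 9 of 17 (52.9%) called in neither alone. A match to these letters does not show binding.

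Most opposed genes share exons with a gene on the other strand, as do most genes of the other classes. Of the 16 annotated, 15 (93.75%) had such an overlap, against 67.9% of all tested genes with a position. The share was 100% (8 of 8) in genes called alike, 89.5% in the activating line only and 77.0% in the repressive line only. The libraries came from a stranded kit and the strand setting used in counting is not given in the sources used here, so the gene on the opposite strand is named beside each row. Which of the 2 genes gave the reads was not tested. Values below are normalized counts, and levels are not compared between genes. Calls in both lines chose the opposed genes and favour libraries that do not overlap, so nothing is read from such separation. In bulk RNA, a change in the share of cells that express a gene and a change per cell cannot be told apart.

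**Figure D1:**
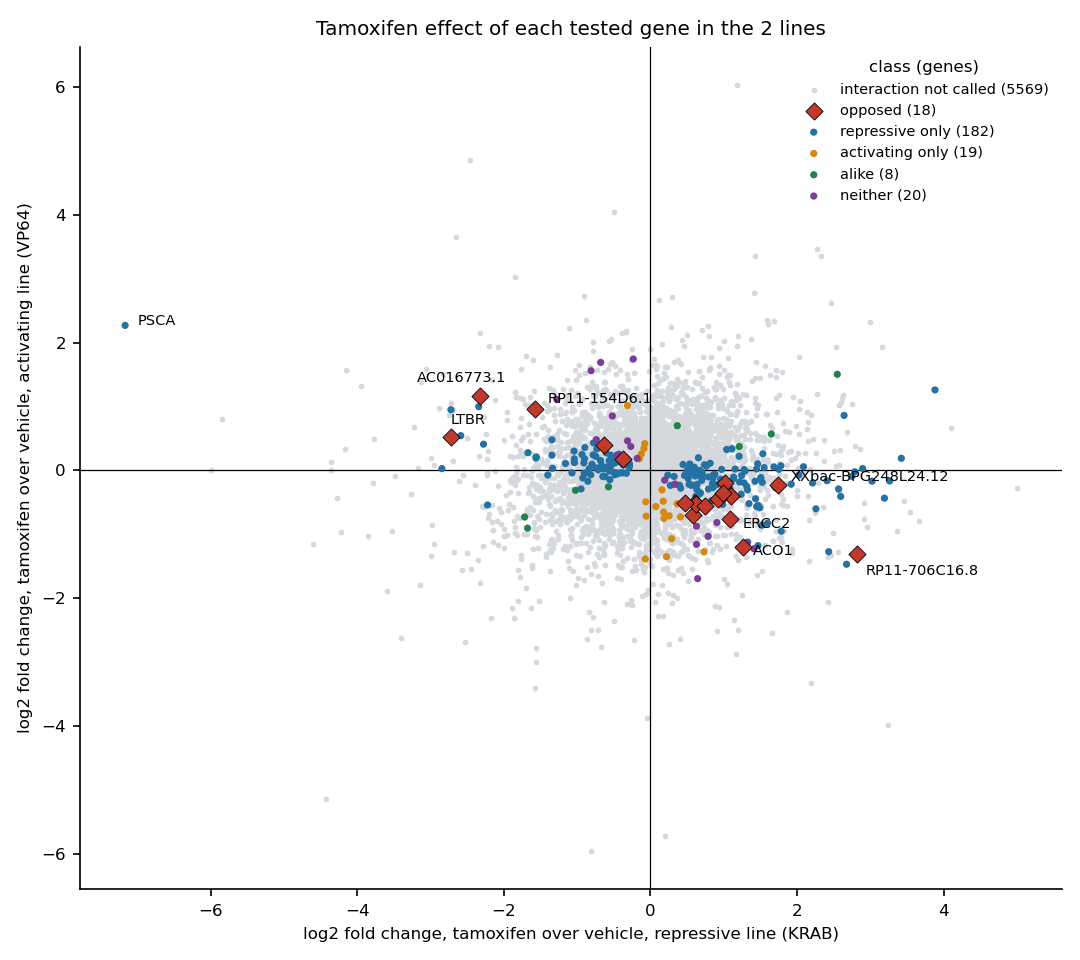
Tamoxifen effect (log2 fold change over vehicle) of each tested gene in the repressive line (x axis) and in the activating line (y axis). Points are genes coloured by class, and diamonds mark the 18 opposed genes, 13 to the lower right and 5 to the upper left.

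A set of 4 opposed genes comprised FTH1, rows opposite FTH1 and a ferritin pseudogene, and ACO1. Ferritin heavy chain, encoded by FTH1, stores iron, and ACO1 encodes the cytosolic aconitase that becomes an iron-regulatory protein, a repressor of ferritin translation, when iron is low. BEST1 (ENSG00000167995, chr11:61717535-61732987, plus strand), whose exons share 1267 bases with those of FTH1 on the other strand, had the most counts. It held 44906, 49675 and 49591 normalized counts in the activating line with vehicle and 36195, 39789 and 32947 with tamoxifen. In the repressive line the values were 38764, 48291 and 50933 with vehicle and 93992, 100449 and 100776 with tamoxifen. No tamoxifen library overlapped a vehicle library in either line. BEST1 thus fell by 1.32-fold in the activating line, a log2 change of -0.40 (SE 0.08, adjusted p 1.38e-05), and rose 2.14-fold in the repressive line, 1.10 (SE 0.08, adjusted p 3.54e-42). Its share of all counts in a library ranged from 4.79% to 5.68% in the activating line with tamoxifen and from 12.4% to 12.8% in the repressive line with tamoxifen.

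FTH1 itself (ENSG00000167996, chr11:61727190-61735106, minus strand) had far fewer counts, 223, 236 and 274 with vehicle and 184, 172 and 179.7 with tamoxifen in the activating line. The repressive values were 176, 253 and 249.9 with vehicle and 469, 454 and 360.5 with tamoxifen. The direction was that of BEST1, with effects of -0.45 and 0.92 and an interaction of -1.37 (SE 0.22, adjusted p 7.74e-08). CTD-2139B15.2 (chr5:17354019-17355008), opposite the ferritin pseudogene FTH1P10, went from 735 ± 46.9 to 573 ± 80.8 (mean ± SD, n = 3) in the activating and from 742 ± 96.7 to 1469 ± 26.5 in the repressive line. Ferritin pseudogenes are near-identical to FTH1, so the 3 rows may share reads and are not independent. FTL, the ferritin light chain, had estimates of -0.50 (no adjusted p) in the activating line and -1.52 (adjusted p 0.013) in the repressive line, where it fell. Over the ferritin and NRF2 target list, 1 of 9 tested genes was called in the interaction, FTH1, and 1 of 6 tested rows opposite a member, BEST1, against 4.25% of all genes. Both are opposed genes, and nothing is read from the list.

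ACO1 (ENSG00000122729, chr9:32384601-32454767, plus strand) was the only annotated opposed gene without an exon overlap on the other strand. It held 27.6, 35.7 and 26.3 in the activating line with vehicle and 13.2, 12.1 and 13.8 with tamoxifen. The repressive line held 68.4, 37.7 and 39.5 with vehicle and 96.1, 129 and 124 with tamoxifen. Tamoxifen libraries lay below every vehicle library in the activating line and above every one in the repressive line. The effects were -1.19 (SE 0.36, adjusted p 0.0146) and 1.26 (SE 0.28, adjusted p 1.32e-04), and the interaction was -2.45 (SE 0.45, adjusted p 5.84e-06).

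HLA-B encodes a class I molecule that presents peptides to T cells. XXbac-BPG248L24.12 (ENSG00000271581, chr6:31324424-31325414, plus strand), an annotated pseudogene with 671 of its 991 exonic bases opposite HLA-B, held 1330.3, 1483 and 1393 with vehicle and 1159, 1282 and 1158 with tamoxifen in the activating line. In the repressive line the values were 2207, 1926 and 1907 with vehicle and 6515, 7286 and 6306 with tamoxifen. The repressive tamoxifen libraries stood far above all others, and the activating ones just below their vehicle libraries. The rise was 3.33-fold, a log2 change of 1.73 (SE 0.07, adjusted p 5.56e-117), and the activating effect was -0.22 (SE 0.08, adjusted p 0.0461). HLA genes and their pseudogenes are close in sequence, so the assignment of these reads is uncertain. The row of HLA-B itself, with a mean of 51.0 counts, had effects of 0.02 in the activating and 1.75 in the repressive line and an interaction of -1.73 (adjusted p 0.00766), so it was not opposed.

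A further 5 opposed rows were KRT17 and rows opposite LY6D, TPM1, VIM and ALDH1A3. RP11-706C16.8 (ENSG00000253715, chr8:143866790-143893536, plus strand), a lncRNA with 216 of 602 exonic bases opposite LY6D, a surface protein of stratified epithelium, showed the lowest interaction of the 18. It held 90.2, 75.3 and 91.4 in the activating line with vehicle and 34.5, 39.1 and 30.4 with tamoxifen. Repressive libraries held 25.6, 46.7 and 29.4 with vehicle and 250.4, 216 and 253 with tamoxifen. Both lines separated completely, 2.47-fold lower in the former and 7.05-fold higher in the latter. The interaction was -4.12 (SE 0.34, adjusted p 4.91e-31). The vehicle levels of the lines also differed here, by 1.33 (SE 0.24, adjusted p 1.07e-05) for activating over repressive. LY6D itself had an interaction of -3.63 (SE 0.63, adjusted p 8.14e-07) and an activating effect of -0.43 without an adjusted p.

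KRT17 (ENSG00000128422, chr17:39775694-39781094, minus strand), a keratin of basal and stressed epithelium, held 725, 657 and 748 with vehicle and 524, 456 and 519.6 with tamoxifen in the activating line. The repressive line held 658, 747 and 567 with vehicle and 1164, 927 and 921 with tamoxifen. The groups did not overlap, with effects of -0.51 (adjusted p 0.00135) and 0.61 (adjusted p 1.99e-05). RP11-244F12.2, a lncRNA whose 691 exonic bases all lie opposite the actin-binding tropomyosin gene TPM1, followed the same pattern at -0.51 and 0.47, with adjusted p of 0.0273 and 0.0372. The row of TPM1, with a mean of 6 counts, had an interaction of 0.14 without an adjusted p. A gene known only by the identifier ENSG00000289252 lies opposite KRT17. KRT17 also has near-identical pseudogenes, so its counts may include theirs.

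The reverse directions were seen for VIM-AS1 and RP11-66B24.4, which rose in the activating and fell in the repressive line. VIM-AS1 (ENSG00000229124, chr10:17256238-17272017, minus strand) lies opposite VIM, the mesenchymal intermediate filament vimentin. It held 4591, 4484 and 4406 with vehicle and 5162, 5133 and 5020.2 with tamoxifen in the activating line. The repressive line held 8745, 9012 and 9496 with vehicle and 6767, 7103 and 7161 with tamoxifen. The effects of 0.18 (SE 0.05) and -0.37 (SE 0.05) were small, and tamoxifen brought the lines closer to each other. The libraries separated in both lines, which the choice by calls favours. Before induction the log2 difference, activating over repressive, was -1.02 (SE 0.05, adjusted p 7.86e-77). The row of VIM had effects of -0.01 and -0.56 and an interaction of 0.55 (adjusted p 0.296). RP11-66B24.4 (ENSG00000259583, chr15:101432548-101459596, minus strand), opposite ALDH1A3, a retinaldehyde dehydrogenase of luminal epithelium, held 2687, 2435 and 2348 with vehicle and 3338, 3154 and 3393 with tamoxifen in the activating and 2263, 2186 and 2464 with vehicle and 1366, 1520.5 and 1578 with tamoxifen in the repressive line. Its effects were 0.40 (SE 0.07, adjusted p 3.57e-06) and -0.63 (SE 0.08, adjusted p 7.95e-15) with a vehicle difference of 0.11 (adjusted p 0.561). The row of ALDH1A3 had estimates below 0 in both lines, -0.53 and -0.82, and an interaction of 0.29 (adjusted p 0.804).

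**Figure D2:**
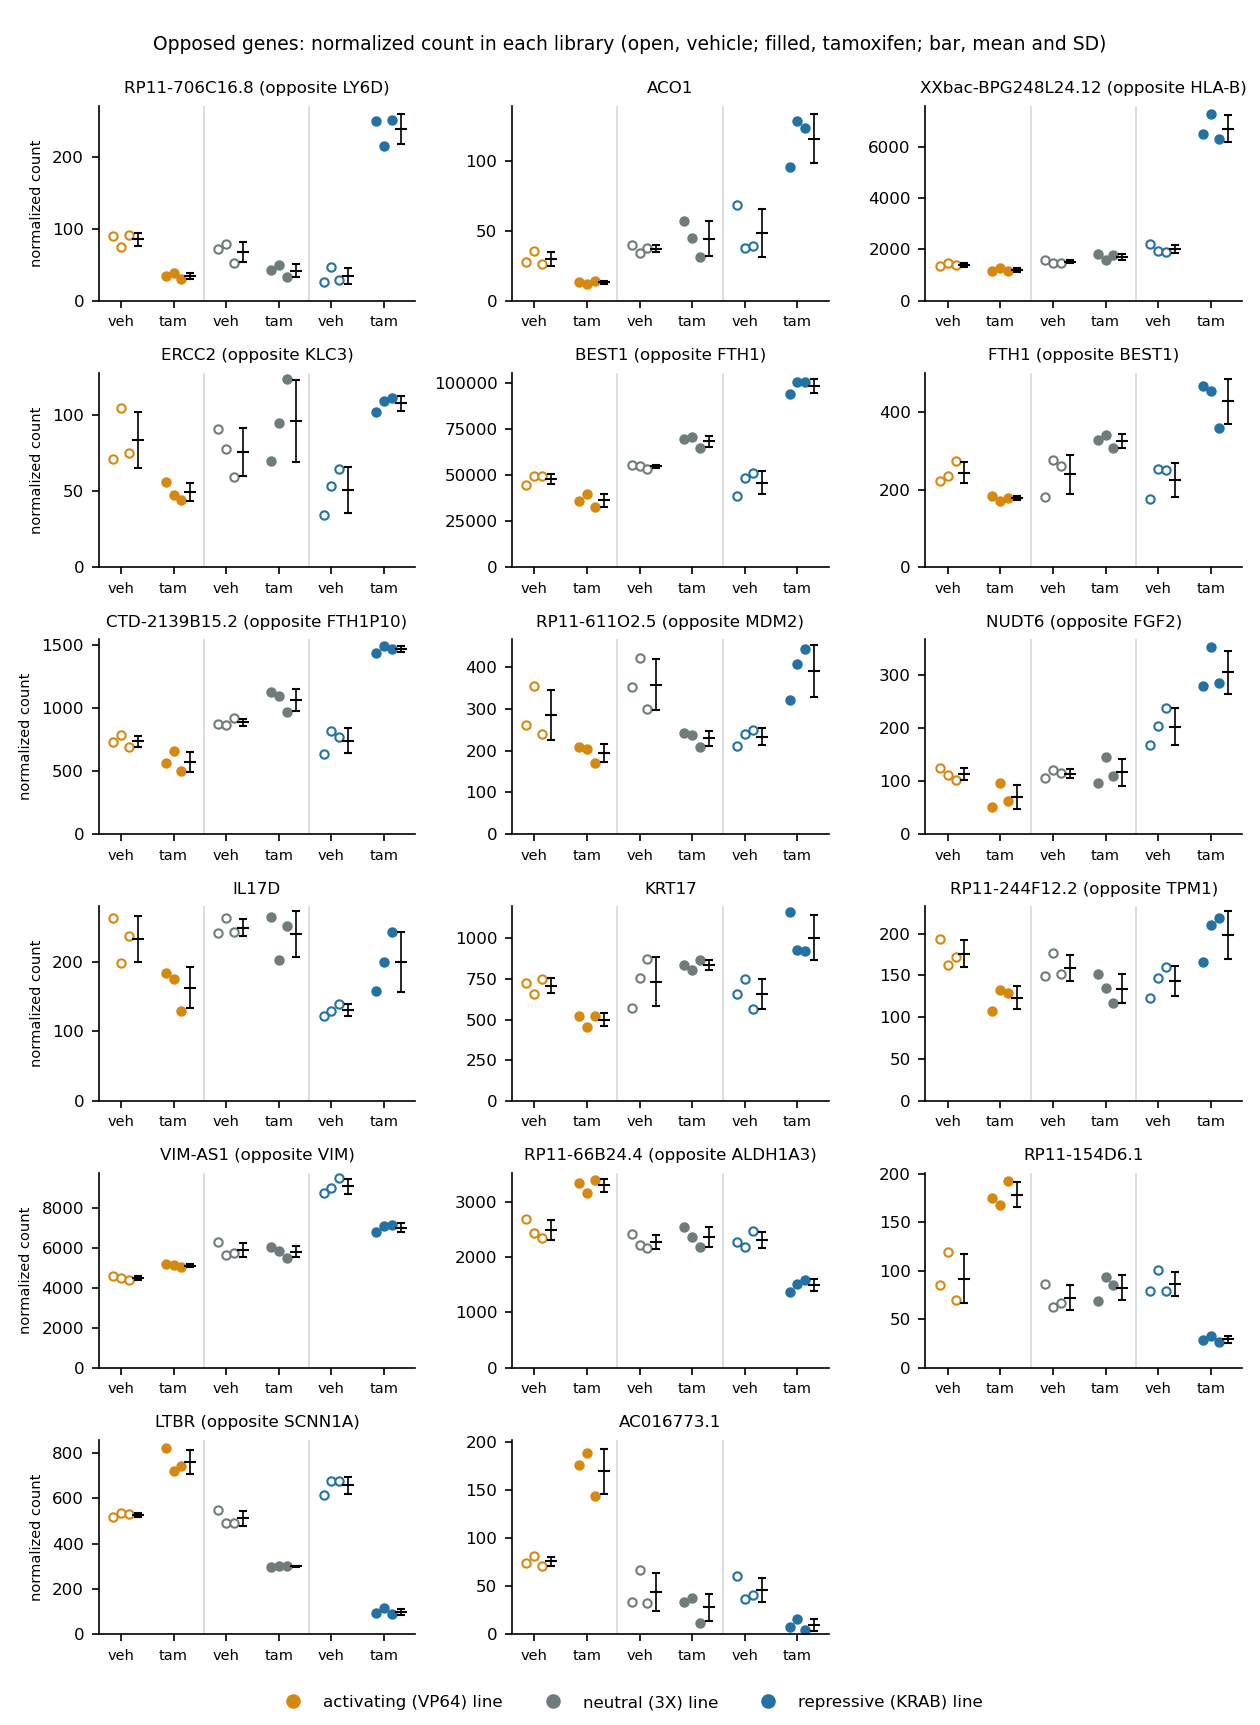
Normalized counts of 17 of the 18 opposed genes (y axes, linear from 0) in each library of the activating, neutral and repressive lines. Open points are vehicle libraries, filled points tamoxifen libraries and bars the mean and SD of 3. Vehicle and tamoxifen points do not overlap in the activating or the repressive line in any of the 17 panels. Calls in both lines chose these genes and favour such separation, and its share over all genes was not counted.

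LTBR (ENSG00000111321, chr12:6484211-6500737, plus strand) encodes the lymphotoxin beta receptor, which activates NF-kB, and 422 of its 6151 exonic bases lie opposite SCNN1A, a subunit of the epithelial sodium channel. In the activating line it held 519, 537 and 529 with vehicle and 822, 719 and 742 with tamoxifen. In the repressive line it held 614, 677 and 678 with vehicle and 95.1, 115 and 89.1 with tamoxifen. The activating tamoxifen libraries were the highest of all and the repressive ones the lowest. LTBR rose 1.44-fold in the former, 0.53 (SE 0.09, adjusted p 9.95e-07), and fell 6.62-fold in the latter, -2.73 (SE 0.12, adjusted p 3.08e-109), with an interaction of 3.25 (SE 0.15, adjusted p 1.29e-98). The row of SCNN1A, with a mean of 13.2 counts, had an interaction of 4.47 without an adjusted p. LTBR was the 1 gene called of 10 tested in the NF-kB and TNF receptor list, against 4.25% of all genes. Of the 10, 6 had no adjusted interaction p, and 2 had an unadjusted DESeq2 p under 0.05, LTBR included.

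Rows at or opposite the p53 regulator MDM2, the growth factor FGF2, the cytokine IL17D and the DNA repair helicase ERCC2 fell in the activating and rose in the repressive line. RP11-611O2.5 (ENSG00000257181, chr12:69235068-69237017, minus strand), with all 785 exonic bases opposite MDM2, held 262, 353 and 239 with vehicle and 208, 205 and 169.5 with tamoxifen in the activating line. The repressive line held 209.8, 241 and 248 with vehicle and 321, 406 and 442 with tamoxifen. Its interaction was -1.30 (SE 0.22, adjusted p 7.58e-07). NUDT6 (ENSG00000170917, chr4:123809852-123844123, minus strand), a nudix hydrolase gene antisense to FGF2, changed by -0.69 from 113 ± 11.9 in the activating and by 0.59 from 203 ± 34.98 in the repressive line (n = 3). The lines already differed before induction, by -0.85 (SE 0.19, adjusted p 0.00103), whereas the row of FGF2 had an interaction of -0.16 (adjusted p 0.912). IL17D (ENSG00000172458, chr13:21276266-21297237, plus strand) changed by -0.52 from 233 ± 32.8 and by 0.62 from 130.2 ± 8.72, with a vehicle difference of 0.84 (SE 0.17, adjusted p 8.98e-05). A gene known only as ENSG00000278291 lies opposite IL17D. ERCC2 (ENSG00000104884, chr19:45853095-45874176, minus strand), opposite the kinesin light chain gene KLC3, held 70.8, 104 and 75.1 with vehicle and 55.7, 47.5 and 44.2 with tamoxifen in the activating line. In repressive libraries it held 34.2, 53.001 and 64.3 with vehicle and 102, 109 and 111 with tamoxifen, and neither line overlapped. Its interaction was -1.85 (SE 0.36, adjusted p 2.42e-05), and the row of KLC3, with a mean of 11.75 counts, had one of 0.07 without an adjusted p.

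RP11-154D6.1 (ENSG00000232295) and AC016773.1 (ENSG00000218422) were not matched to the annotation, so their position is not given here. RP11-154D6.1 held 85.6, 119.7 and 69.7 with vehicle and 175, 167 and 193 with tamoxifen in the activating line. Repressive libraries held 78.8, 101 and 79.01 with vehicle and 28.1, 32.5 and 26.2 with tamoxifen. Its effects were 0.96 and -1.58. AC016773.1 held 74.5, 81.1 and 71.5 with vehicle and 176, 189 and 144 with tamoxifen in the activating line, and 60.8, 36.8 and 41.3 with vehicle and 7.76, 16.2 and 4.19 with tamoxifen in the repressive line, which left it 5.02-fold lower there with tamoxifen. It had the highest interaction of the 18, 3.49 (SE 0.51, adjusted p 1.20e-09).

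Of the 18, the repressive effect was the larger in 16, the exceptions being NUDT6 and RP11-244F12.2. RP11-706C16.8, ACO1 and AC016773.1 had an absolute log2 effect above 1 in both lines. The median absolute effect was 0.52 in the activating and 1.00 in the repressive line. In the activating line 163 genes were called (2.8%, 1.34% higher and 1.46% lower), and in the repressive line 561 (9.65%, 5.62% higher and 4.02% lower). DESeq2 gave an adjusted p for 1644 genes in the former and 4575 in the latter. The 2 counts of calls thus rest on unlike numbers of genes. At an unadjusted DESeq2 p under 0.05 there were 605 and 1147. In the interaction 95 genes were higher (1.63%) and 152 lower (2.61%), beside 13 of the 18 opposed genes lower. All 18 kept their interaction call when any single library was left out.

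Membership rested mostly on the smaller, activating effect. For 9 of the 18 its adjusted p was 0.01 or more, and members just inside the threshold were FTH1 (0.0475) and XXbac-BPG248L24.12 (0.0461). Just outside lay AP001610.5 (opposite MX1, 0.0553), CTB-191K22.5 (opposite MYH14, 0.0571) and AC068580.6 (opposite CTSD, 0.0632). RP11-706C16.8, BEST1, KRT17, RP11-66B24.4, RP11-154D6.1, LTBR and AC016773.1 stayed opposed without any single one of the 12 libraries. In the activating line RP11-611O2.5 lost its call without vehicle replicate 2 (adjusted p 0.248) or tamoxifen replicate 3 (0.120), and CTD-2139B15.2 without vehicle replicate 2 (0.0977) or tamoxifen replicates 1 (0.0533) or 3 (0.146). ACO1 lost it without vehicle replicate 2 (0.122) or any tamoxifen replicate (0.0633, 0.0732 and 0.0589), and VIM-AS1 without vehicle replicates 2 (0.0718) or 3 (0.0858) or tamoxifen replicates 1 (0.0771) or 2 (0.0627). XXbac-BPG248L24.12 lost it without any activating library except tamoxifen replicate 2 (0.0611 to 0.294, highest without vehicle replicate 2) and without tamoxifen replicate 1 of the repressive line (0.0517). ERCC2 lost it without any activating library (0.0604 to 0.336, highest without vehicle replicate 2) or without tamoxifen replicate 2 of the repressive line (0.0522).

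IL17D lost its activating call without vehicle replicates 1 (adjusted p 0.236) or 3 (0.107) or tamoxifen replicate 3 (0.292), and its repressive call without tamoxifen replicate 3 of that line (0.0943). NUDT6 lost the former without vehicle replicates 1 (0.143) or 2 (0.069) or tamoxifen replicates 1 (0.203) or 3 (0.124), and the latter without vehicle replicates 1 (0.134) or 2 (0.0592) or tamoxifen replicate 2 (0.129) of the repressive line. RP11-244F12.2 stayed opposed in 3 of 12 leave-outs, those of activating tamoxifen replicate 2, repressive vehicle replicate 3 and repressive tamoxifen replicate 1. Its adjusted p reached 0.216 in the activating line without vehicle replicate 1 and 0.202 in the repressive line without vehicle replicate 1. FTH1 stayed opposed in 2 of 12 leave-outs. It did so without vehicle replicate 1 or tamoxifen replicate 3 of the repressive line and otherwise reached 0.0537 to 0.282 in the activating line, highest without vehicle replicate 3. Under 7 other settings of the processing (other scaling, filters, tests or samples), FTH1 was opposed in 0, XXbac-BPG248L24.12 in 1, RP11-244F12.2 in 2, ERCC2 and IL17D in 3 each, NUDT6 in 5 and VIM-AS1 in 6. ACO1 was opposed in 7 of 8, and the other named members in all 7.

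The neutral line, whose construct binds DNA without an effector, served as the reference for tamoxifen and DNA binding. Its tamoxifen effect lay between those of the other lines in 17 of the 18 genes, the exception being RP11-611O2.5. Opposite signs in the other lines place any small neutral effect between them, so nothing is read from the 17. The neutral effect had the sign of the repressive effect in 12 and of the activating effect in 6. In the neutral contrast, in which 45 genes (0.774%) were called, 3 of the 18 passed. BEST1 rose by 0.32 (SE 0.08, adjusted p 0.00289), from 55580.2, 55035 and 53632 to 69469.6, 70590.1 and 64958, the direction of the repressive line. LTBR fell by 0.77 on the log2 scale (SE 0.10, adjusted p 5.14e-12), from 549.6, 493 and 492 to 296, 300.1 and 302, again the direction of the repressive line. RP11-611O2.5 fell by 0.64 (SE 0.16, adjusted p 0.00289), the direction of the activating line. The other 15 include 2 without an adjusted p in this contrast, ACO1 and AC016773.1.

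Each line was also set against the neutral line, and both of these comparisons share the neutral libraries. The activating effect differed from the neutral one in 36 of 5816 genes (0.619%) and in 8 of the 18 opposed genes, and the repressive effect in 224 (3.85%) and in 12 of the 18. The effects that chose the 18 also enter these comparisons, so nothing is read from the 8 and 12. BEST1, CTD-2139B15.2, XXbac-BPG248L24.12, RP11-66B24.4, LTBR and AC016773.1 passed in both. For LTBR the activating effect exceeded the neutral one by 1.30 (SE 0.14, adjusted p 1.04e-18) and the repressive one fell below it by a log2 difference of -1.95 (SE 0.16, adjusted p 1.41e-32). KRT17 and FTH1 passed against the neutral line in the activating line only, at -0.69 and -0.89, with repressive differences of 0.42 (adjusted p 0.126) and 0.47 (0.1898).

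**Figure D3:**
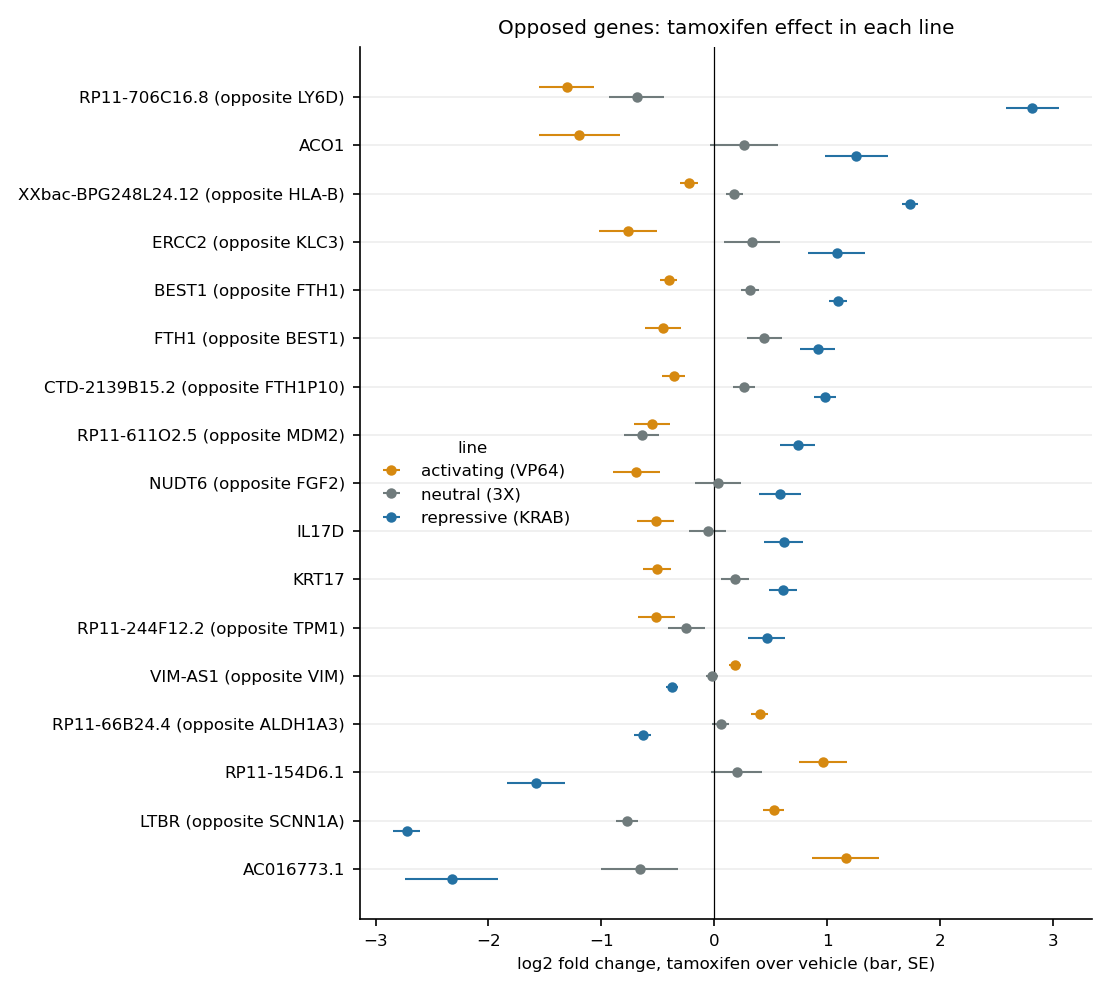
Tamoxifen effect (log2 fold change, x axis, with SE) of 17 of the 18 opposed genes in the activating, neutral and repressive lines, ordered by the interaction from lowest to highest. The neutral point lies between the other 2 in 16 rows, which the choice by opposite signs favours, and outside them for RP11-611O2.5.

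The lines were not equal before induction. With vehicle, 100 genes (1.72%) differed between the activating and repressive lines, among them 6 of the 18 opposed genes. The activating line was higher for RP11-706C16.8 (1.33) and IL17D (0.84) and lower for XXbac-BPG248L24.12 (-0.52), NUDT6 (-0.85), VIM-AS1 (-1.02) and LTBR (-0.31). For RP11-706C16.8, IL17D, VIM-AS1 and LTBR the tamoxifen effects ran towards the vehicle level of the other line, and for XXbac-BPG248L24.12 and NUDT6 away from it. Both effects of LTBR and the repressive effect of RP11-706C16.8 went past that level. Activating and repressive means of LTBR were 528 and 657 with vehicle and 761 and 99.7 with tamoxifen. Those of RP11-706C16.8 were 85.6 and 33.9 with vehicle and 34.6 and 240 with tamoxifen. The part of these baseline differences in the opposed responses was not tested.

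Most interaction calls came from genes called in the repressive line only. Of the 182, 113 rose and 69 fell there, and the activating estimate had the opposite sign in 134 and the same sign in 48. An interaction call favours opposite signs by construction, so nothing is read from these counts. A missing activating call does not show that the activating line did not respond, and 39 of the 182 had no adjusted p in that line. AP001610.5 (opposite MX1, an interferon-induced antiviral GTPase) held 11.04, 8.69 and 14.5 with vehicle and 5.07, 3.72 and 3.69 with tamoxifen in the activating line, and 26.6, 40.4 and 19.3 with vehicle and 176, 211 and 166 with tamoxifen in the repressive line. Its interaction was -4.14 (SE 0.61, adjusted p 2.49e-09), with an activating effect of -1.47, and its libraries did not overlap in either line. SERPINB11 (opposite the squamous serpin gene SERPINB3) rose from 66.02 ± 21.8 to 536 ± 136 in the repressive line with tamoxifen and held 75.7 ± 6.75 and 67.3 ± 12.9 in the activating line (n = 3). AC019349.5 (opposite the squamous keratin gene KRT13) rose from 196 ± 27.96 to 1183 ± 123.

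In the other direction CEBPD (ENSG00000221869, chr8:48649475-48650726, minus strand), a transcription factor induced by glucocorticoids, held 151, 65.7 and 138 with vehicle and 141, 189.8 and 141 with tamoxifen in the activating line. In the repressive line it held 153, 142 and 130.5 with vehicle and 24.3, 30.2 and 33.5 with tamoxifen. It fell by 2.28 on the log2 scale in the repressive line and overlapped in the activating line (log2 0.41, SE 0.22, adjusted p 0.288). It also fell in the neutral line (log2 -0.89, SE 0.24, adjusted p 0.00903). GSE1 (opposite GINS2 over 7 bases), LINC00910 and the keratin KRT6A also fell in the repressive line, with interactions of 1.82, 1.33 and 1.27. LINC00910 lost its interaction call without tamoxifen replicate 1 (adjusted p 0.0905) or vehicle replicate 1 (0.052) of the repressive line or tamoxifen replicate 2 of the activating line (0.0511). KRT6A is close in sequence to other KRT6 genes, so its counts may include theirs.

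Of the 19 genes called in the activating line only, 5 rose and 14 fell, and the repressive estimate had the opposite sign in 16, which the interaction call also favours. The receptor gene NOTCH1 (ENSG00000148400, chr9:139388885-139440500, minus strand), with no gene opposite, fell from 65.3, 132 and 86.9 to 51.7, 39.1 and 21.2, whereas the repressive line went from 66.5, 44.02 and 58.8 to 65.03, 90.5 and 41.9 and overlapped. Its interaction was -1.57 (SE 0.44, adjusted p 0.00815). In the neutral line NOTCH1 also had a negative estimate, -0.82 (SE 0.31), without an adjusted p. Its activating effect did not pass against the neutral one (-0.53, adjusted p 0.658). DEAF1 (opposite EPS8L2) fell from 488 ± 60.9 to 187 ± 38.4 (n = 3) and held 305 ± 96.1 and 291 ± 32.8 in the repressive line. RP11-265D17.2 (opposite MICAL2) and SNAP47 (opposite JMJD4) fell too, with interactions of -2.01 and -0.96. In the repressive line the libraries of RP11-265D17.2 did not overlap either, with an estimate of 0.73 (SE 0.27, adjusted p 0.0586) that was not called. IFT20 (opposite TMEM97), RP11-307C12.12 (opposite SHC1), RP1-125I3.2 (opposite PAQR7) and SYNC (opposite RBBP4) rose in the activating line, with interactions from 0.38 to 1.33. RP1-125I3.2 had an estimate of 0.30 (SE 0.10, adjusted p 0.0693) in the neutral line, beside 0.35 in the activating line. The activating effect passed against the neutral one in 4 of the 19, beside 0.619% of all genes, and the choice of the 19 favours this.

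Several of these calls rested on few libraries. NOTCH1 lost its interaction call without repressive tamoxifen replicate 2 (adjusted p 0.0713) or activating vehicle replicate 2 (0.0674). IFT20 lost it without repressive tamoxifen replicate 3 (0.0897), repressive vehicle replicates 1 (0.0705) or 3 (0.0859), activating tamoxifen replicate 2 (0.0953) or activating vehicle replicate 1 (0.0923). RP1-125I3.2 lost it in 10 of the 12 leave-outs (0.076 to 0.187, highest without repressive vehicle replicate 2), and SYNC in 9 (0.0501 to 0.16, highest without repressive tamoxifen replicate 1). Both also lost it with edgeR (0.137 and 0.0749).

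Genes that moved alike were more numerous than opposed ones. Both lines called 84 genes, of which 66 had the same sign (39 higher, 27 lower), and 58 of the 66 did not pass in the interaction. CTD-2636A23.2, whose exons lie wholly opposite HMGCS1, an enzyme of cholesterol synthesis, rose in both lines, to 525, 477 and 693 from 216, 184 and 196 in the activating and to 1271, 1465 and 1442 from 282, 210.2 and 222 in the repressive line. It rose further in the latter, with an interaction of -1.04 (SE 0.19, adjusted p 5.56e-06). AC004510.3 (opposite UCA1) rose by 1.63 and 1.56, and TBPL1 (opposite SLC2A12) by 1.09 and 2.04. RP5-955M13.4 (opposite the potassium channel gene KCNG1) and L3MBTL2 (opposite L3MBTL2-AS1) fell in both, with activating effects of -1.48 and -1.35 and repressive effects of -1.62 and -1.43. The interaction of each of these 4 was not called, with adjusted p from 0.0958 to 0.972.

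Lists of genes from general knowledge were then read in the interaction, on the row of each gene and separately on rows that lie opposite a member. The lists were chosen with earlier results of these data known, so their counts are no independent support. FKBP5, TSC22D3 and CEBPD were also among the genes fixed for naming. Of 13 tested steroid receptor targets 4 were called, all higher (activating above repressive), against 4.25% of all genes, and the median interaction of the list was 1.25 against 0.03 over all genes. None was opposed. FKBP5, a chaperone of steroid receptors, held 46.9, 32.8 and 35.3 with vehicle and 60.8, 43.7 and 63.6 with tamoxifen in the activating line, and 60.8, 26.1 and 46.9 with vehicle and 5.82, 8.12 and 8.38 with tamoxifen in the repressive line. It fell in the repressive line (log2 -2.59, SE 0.45, adjusted p 3.92e-07), while its activating estimate of 0.55 had no adjusted p and its libraries overlapped. TSC22D3 had a repressive effect of -2.84 beside an activating one of 0.03 without an adjusted p. The metallothionein MT2A went from 14.7, 28.96 and 29.9 to 40.5, 41.9 and 64.5 in the activating line and from 26.6, 26.1 and 11.02 to 6.79, 3.48 and 2.096 in the repressive line, without overlap in either, but had no activating adjusted p. The remaining one was CEBPD. ZBTB16, another steroid-induced gene, was below the count filter, with raw counts of 2, 3 and 2 with vehicle and 9, 6 and 9 with tamoxifen in the activating and 5.001, 7 and 6 with vehicle and 0, 1 and 0 with tamoxifen in the repressive line. The other 9 were not called, and 4 of them had no adjusted interaction p. Of the 13, 7 had an unadjusted DESeq2 p under 0.05, and edgeR called 5. None of the 3 tested rows opposite a member was called, and their median interaction was -0.31.

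Of all genes 4.25% were called, and among 11 tested luminal genes only PSCA (opposite JRK), a surface antigen of prostate epithelium. Its raw counts were 7, 8 and 9 with vehicle and 35, 43 and 35 with tamoxifen in the activating line. In the repressive line they were 27, 35 and 29 with vehicle and 0 in all 3 tamoxifen libraries, at least 10.1-fold lower against a floor of 3 counts per library. The activating estimate of PSCA was 2.27 (SE 0.47) without an adjusted p, so it was not counted as opposed. Without independent filtering, the step that withholds adjusted p from low-count genes, its activating adjusted p was 2.51e-04 and it was opposed. Of the 11 luminal genes, 4 had no adjusted interaction p, SCNN1A among them. At an unadjusted DESeq2 p under 0.05 there were 3, and edgeR called 2. The median of the luminal list was 0.23, and was the same with PSCA set at its bound. On rows opposite luminal genes, LTBR was the one called of 8.

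The interferon response list lay on the other side. Of 18 tested genes 3 were called, all lower, against 2.61% of all genes lower, and 11 of the 18 had no adjusted interaction p. Estimates were below 0 in 17 of 18, with a median of -1.37 against 0.03 over all genes. IRF1 (opposite IRF1-AS1) rose by 1.24 in the repressive line from 54.02 ± 8.33 to 128 ± 19.4 and had an activating effect of -0.37 (adjusted p 0.548). ISG15 rose by 1.47, and IRF7 passed in the interaction (log2 -2.46, SE 0.80, adjusted p 0.0371) but in neither line, having no activating adjusted p. IRF7 lost that call in 4 leave-outs (adjusted p 0.0692 to 0.103, highest without repressive vehicle replicate 2) and with edgeR (0.0702). On rows opposite an interferon gene 4 of 7 were called, TAPSAR1 (opposite TAP1), AP001610.5, CTD-2047H16.4 (opposite RNF213) and AC009950.2 (opposite SP110), with repressive effects from 1.29 to 2.68. Activating effects of TAPSAR1, CTD-2047H16.4 and AC009950.2 lay between -0.22 and 0.06. AC009950.2 lost its call in 10 of 12 leave-outs (0.0568 to 0.167, highest without repressive tamoxifen replicate 3) and with edgeR (0.0848). None of these 7 calls was opposed, and ISG15, IRF7 and AC009950.2 had no adjusted p in the activating line.

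Squamous differentiation genes were called in 4 of 14 cases, against 4.25% of all genes, SERPINB11, LY6D and FGFBP1 lower and KRT6A higher. All 3 tested rows opposite a squamous gene were lower, RP11-706C16.8 among them. SERPINB11 is counted in both, as its own row and as the row opposite SERPINB3, and the LY6D locus enters through 2 rows, so these counts are not independent. FGFBP1, a secreted carrier of fibroblast growth factors, rose by 2.64 in the repressive line and had an estimate of 0.86 in the activating line, of the same sign. It lost its interaction call in 8 of 12 leave-outs (0.0576 to 0.116, highest without repressive tamoxifen replicate 3). Of 23 basal genes 3 were called, all lower and with KRT17 and NOTCH1 among them, against 2.61% of all genes lower. The list median was -0.11, against 0.03 over all genes. KRT5 and KRT14, the main basal keratins, had interactions of -0.22 and 0.15, with adjusted p of 0.555 and 0.790.

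The interaction called 4.25% of all genes (DESeq2). None was called among 12 S phase, 15 G2/M, 19 MYC target, 12 cholesterol synthesis and 21 stress response genes. The 2 tested markers of other cell types were not called either. At an unadjusted p under 0.05 there were 0, 0, 5, 0, 5 and 0, and edgeR also called 0 in each of these lists. Of the MYC targets, 17 of 19 had an estimate above 0, with a median of 0.45 against 0.03 over all genes. The 19 include 8 without an adjusted interaction p. It was also missing for 4 of the S phase, 5 of the G2/M, 5 of the cholesterol synthesis and 6 of the stress response genes. On rows opposite a member, GSE1 (opposite GINS2) was the 1 called of 5 tested for S phase. HIGD2A (opposite NOP16, -3.23) was the 1 of 6 for MYC targets, and CTD-2636A23.2 the 1 of 7 for cholesterol synthesis. Stress response genes fell in the repressive line in 10 of 21 cases and in the activating line in 2, with no interaction call, against 4.02% and 1.46% of all genes lower, but 16 of the 21 had no adjusted p in the activating line. The list medians were -1.15 and -0.65. Of the construct parts, ZNF10, the usual source of the KRAB domain, had 0 counts in every activating and neutral library, and 2, 8 and 6 with vehicle and 6, 16 and 2 with tamoxifen in the repressive line. ESR1, which includes the ERT2 sequence, had an interaction of 0.03 (SE 0.48, adjusted p 0.991).

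**Figure D4:**
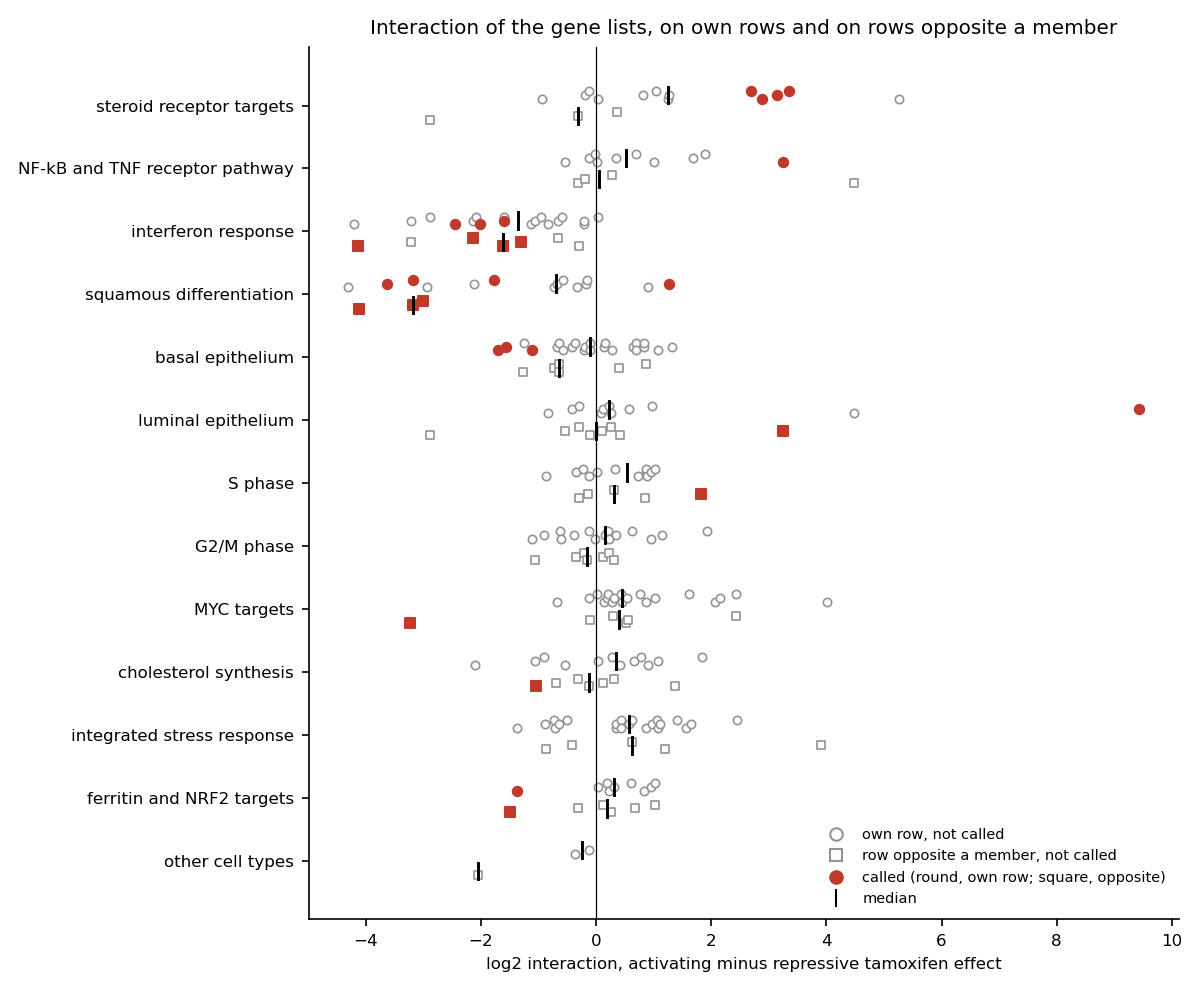
Log2 interaction (x axis, activating minus repressive tamoxifen effect) of every tested member of 13 gene lists (rows of the plot). Round points are rows of the genes themselves, squares rows opposite a member, filled red points passed the test, and bars are medians. The called steroid receptor targets lie to the right of 0 and all 7 called interferon rows to the left.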

How the data were processed

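RNA from RWPE1 lines with the activating, repressive or neutral construct was sequenced from stranded mRNA libraries. The authors deposited expected counts per gene, estimated with Salmon 1.9.0 on GRCh37 and not scaled, and 1.10% of values were not whole. The strand setting of the counting is not given in the sources used here. Expected counts were rounded, and genes that reached 10 counts in 3 or more of the 18 libraries (5816, holding 97.6% of counts) were fitted in DESeq2 1.42.0 (R 4.3.3) with 1 mean per group over all 18 libraries. Wald tests were two-sided with Benjamini-Hochberg adjustment over all genes and independent filtering, and a call was an adjusted p under 0.05. The pipeline was tested on simulated data. The p-values measure the spread between these samples. Replicates differed by more than counting noise, with a chi-square per degree of freedom of 2.84 to 3.79.

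Exon overlaps on the opposite strand came from a GENCODE annotation of GRCh37, to which 96.1% of table rows matched. Alternatives were edgeR 4.0.16, other scalings, filters and sets of libraries or rows, a replicate block and leaving out each library. Named genes were all opposed genes, then in each one-line class and direction the 4 with the largest absolute interaction, a mean of at least 50 normalized counts and no overlap, then 3 alike genes per direction, a few fixed genes and up to 4 called members per list. A few genes, and rows that lie opposite them, are not reported here by name but stay in the counts. The members and lists were chosen with earlier results of these data known. The comparisons with the neutral line and the element search were added after the data were seen. Tables used Python 3.11.15 with pandas 2.3.3, and plots matplotlib 3.10.9.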

Additional observations from a re-analysis of the deposited data

Results flagged for a closer look

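The tamoxifen effect differed between the activating and repressive lines in 247 genes by the interaction term of DESeq2, and 46 of them are named here with the log2 interaction (activating minus repressive) in parentheses. Of the opposed genes, those lower in the interaction were RP11-706C16.8 (-4.12), ACO1 (-2.45), XXbac-BPG248L24.12 (-1.96), ERCC2 (-1.85), BEST1 (-1.50), FTH1 (-1.37), CTD-2139B15.2 (-1.34), RP11-611O2.5 (-1.30), NUDT6 (-1.28), IL17D (-1.14), KRT17 (-1.12) and RP11-244F12.2 (-0.98). Those higher were VIM-AS1 (0.56), RP11-66B24.4 (1.04), RP11-154D6.1 (2.54), LTBR (3.25) and AC016773.1 (3.49).

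Among genes called in the repressive line only, the interaction was lower for AP001610.5 (-4.14), SERPINB11 (-3.19), AC019349.5 (-3.00), IRF1 (-1.61), ISG15 (-2.02), TAPSAR1 (-1.30), CTD-2047H16.4 (-1.63), AC009950.2 (-2.14), LY6D (-3.63), FGFBP1 (-1.78) and HIGD2A (-3.23), and higher for CEBPD (2.69), GSE1 (1.82), LINC00910 (1.33), KRT6A (1.27), FKBP5 (3.13), TSC22D3 (2.87), MT2A (3.34) and PSCA (9.44). The fitted value of PSCA depends on how counts of 0 are handled and is no bound.

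Among genes called in the activating line only, the interaction was lower for RP11-265D17.2 (-2.01), NOTCH1 (-1.57), DEAF1 (-1.32) and SNAP47 (-0.96), and higher for IFT20 (1.33), RP11-307C12.12 (0.50), RP1-125I3.2 (0.43) and SYNC (0.38). The remaining genes were CTD-2636A23.2 (-1.04) and IRF7 (-2.46), the first called in both lines with the same sign and the second in neither line alone. Groups of 3 libraries are too small for a test of single libraries that stand apart.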

How the results depend on the processing

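Of the 18 opposed genes, edgeR gave 11 (10 shared) and the fit limited to rows with no exon of another gene on the opposite strand gave 0. In that fit ACO1 had an activating adjusted p of 0.122, and 179 genes had an unadjusted interaction p under 0.05. With an unadjusted p in each line 47 genes were opposed, and with opposite signs and a call in 1 line 168. Leaving out 1 library gave 9 to 18, with 9 without tamoxifen replicate 3 or vehicle replicate 2 of the activating line and 10 without its tamoxifen replicate 1. The 247 interaction genes became 40 in rows without overlap and 136 with an absolute log2 interaction above 1, and 191 to 229 without 1 library. Genes in the repressive line only became 32 and 98 under these 2 settings (141 to 171 without 1 library), and those in the activating line only 2 and 6 (14 to 23). Genes alike in both lines became 2 in rows without overlap (46 to 71 without 1 library). Fewer rows enter the fit without overlap, and the cause of the other changes was not tested.

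Total-count scaling gave 298 interaction genes, 63.4% of them higher against 38.5%, and moved the median interaction from 0.03 to 0.19. It gave 18 opposed genes, 13 of them shared and 9 higher in the interaction (5 in the main scaling). TMM factors gave 248, no low-count filter 279, no independent filtering 210 and the 12 libraries alone 223. PSCA was opposed with edgeR, without the low-count filter, without independent filtering, with the 12 libraries alone and without vehicle replicate 1 of the activating line. The main fit did not pair samples by replicate number. Same-numbered vehicle and tamoxifen deviations correlated at 0.116, 0.138 and 0.0478 in the activating line, where every tamoxifen library correlated best with its own number, and at -0.0748, 0.0444 and -0.0394 in the repressive line. With the replicate block, an effect of replicate number shared by all lines, 222 genes were called and 13 were opposed, 12 of them shared. Pairing within each line was not fitted.

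Of 961 recomputed values of named genes, 873 kept direction and call, 69 lost the call, 1 gained it (TBPL1, without tamoxifen replicate 1 of the repressive line) and 18 changed sign. The sign changed only for 4 genes whose interaction was not called. ESR1 was -0.024 with the replicate block, -0.10 in rows without overlap and -0.36 to 0.27 without 1 library. Without 1 library, AC004510.3 ranged from -0.20 to 0.37, RP5-955M13.4 from -0.35 to 0.41 and L3MBTL2 from -0.47 to 0.49. Totals of 675609 to 792282 counts limit low genes, and 3561 of 5816 genes had an adjusted interaction p.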
